A study of Mus musculus with 9 samples.

Results

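Interferon-stimulated antiviral genes were followed in lung RNA of mice given PepNzymeSOD-CAT, mice with a pulmonary fibrosis model and normal mice. The genes were chosen by name from a list of 48 symbols, and 46 of them had a row among the 25526 names of the deposited table. Mx1 and Mx2 had no row under those symbols and were not analysed here. The study profiled 9 lungs by RNA sequencing, with 3 mice in each of 3 groups, labelled PepNzymeSOD-CAT (called nanozyme below), pulmonary fibrosis model, and normal. PepNzymeSOD-CAT is a self-assembled polypeptide named for superoxide dismutase and catalase, the enzymes that remove superoxide and hydrogen peroxide, and the series describes it as inhalable. The labels do not name the agent that induced fibrosis, the dose of nanozyme, the time of sampling, or the strain, sex and age of the mice, and they do not say in words that nanozyme mice also received the fibrosis model. Values are FPKM, which scales fragments to transcript length and library size, as the authors deposited them. Changes are log2 fold changes ± SE on log2(FPKM + 1) from limma, and p-values are adjusted over all 14540 genes tested in a comparison.

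Interferons are secreted proteins that warn cells of infection or damage. Type I and type III interferons signal through receptors coupled to the kinases JAK1 and TYK2, which activate a transcription factor complex, with STAT2 and IRF9 among its parts, that binds interferon-stimulated response elements in promoters. Type II interferon, the product of Ifng, acts mainly through gamma-activated sites, and induces IRF1 and a family of GTPases that attack vacuoles holding microbes. Interferon-stimulated genes encode sensors of foreign nucleic acids, enzymes that degrade RNA or stop translation, proteins that block entry and release of viruses, and feedback regulators. In lung they are expressed by epithelium, endothelium and leucocytes alike.

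The promoters of 4 genes are shown first. They hold a match to the core of the response element, in genes that were among the most changed. Promoter sequences from RefSeq (build GRCm38.p6, 250 bases before to 50 after each start) were found for 35 of the 46 genes, in 44 windows. They were searched on both strands for the core of the interferon-stimulated response element, GAAA followed after any 2 bases by GAAA. A match was present in 17 of the 35 genes (48.6%), against 1079 of all 27025 genes with a promoter (3.99%). The palindromic motif TTCNNNGAA of gamma-activated sites was present in 11 of 35 genes (31.4%) and in 2582 of 27025 (9.55%). Matches to these motifs overlapped each other in Ifitm3 and Bst2. The 4 genes printed are those with a match to the response element core and the largest change between model and normal lung. Zbp1, Iigp1 and Ifi204, also among the most changed, had no promoter entry and were not searched. Capitals mark the match, on the strand of the gene or, in Rsad2, as its reverse complement. The promoter of Igtp, on the plus strand at chr11:58199306-58199605, holds 1 match that begins 34 bases before the start. Rsad2 lies on the minus strand at chr12:26456403-26456702, with 1 match that begins 120 bases before the start. Oas3 lies on the minus strand at chr5:120777610-120777909 with 1 match beginning 75 bases before the start, and Isg15 on the minus strand at chr4:156200769-156201068 with 3 overlapping matches, of which the first begins 78 bases before it.
Igtp: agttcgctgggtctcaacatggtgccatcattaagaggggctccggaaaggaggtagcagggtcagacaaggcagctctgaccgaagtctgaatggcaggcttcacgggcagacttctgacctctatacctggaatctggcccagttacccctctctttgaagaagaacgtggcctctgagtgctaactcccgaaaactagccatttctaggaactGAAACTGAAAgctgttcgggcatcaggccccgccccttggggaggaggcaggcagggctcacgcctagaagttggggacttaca
Rsad2: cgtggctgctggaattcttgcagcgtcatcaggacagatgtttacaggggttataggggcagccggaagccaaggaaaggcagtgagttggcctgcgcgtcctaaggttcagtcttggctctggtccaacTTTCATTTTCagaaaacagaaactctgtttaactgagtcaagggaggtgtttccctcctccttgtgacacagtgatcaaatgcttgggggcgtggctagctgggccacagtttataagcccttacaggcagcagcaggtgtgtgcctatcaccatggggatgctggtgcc
Oas3: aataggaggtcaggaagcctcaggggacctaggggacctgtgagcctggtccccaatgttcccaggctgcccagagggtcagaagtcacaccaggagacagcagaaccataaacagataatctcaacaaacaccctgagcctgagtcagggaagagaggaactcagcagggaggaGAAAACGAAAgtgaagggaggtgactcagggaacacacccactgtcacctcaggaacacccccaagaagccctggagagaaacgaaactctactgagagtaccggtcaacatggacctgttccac
Isg15: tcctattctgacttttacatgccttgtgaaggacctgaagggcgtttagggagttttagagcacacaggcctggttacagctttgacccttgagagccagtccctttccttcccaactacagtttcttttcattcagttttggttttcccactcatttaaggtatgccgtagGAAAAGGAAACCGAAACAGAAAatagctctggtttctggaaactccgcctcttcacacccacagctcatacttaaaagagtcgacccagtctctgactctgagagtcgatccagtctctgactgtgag

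The 17 genes with a match to the response element core had a median change of 2.68 between model and normal lung (from 1.23 to 4.51), and the 18 without one had a median of 1.73 (from 0.46 to 3.64). Those without a match to the core in this window included Irf7, Irf1, Ifit2 and Oasl1. For TTCNNNGAA the order was reversed. The 11 genes with that motif had a median change of 1.85 (from 0.85 to 4.51), and the 24 without it 2.32 (from 0.46 to 4.50). Neither difference was tested. A match is a description of the letters in the window and does not show binding. In the GENCODE vM21 annotation of GRCm38, 18 of the 46 genes lay in 8 groups within 500 kb of another member. Oas2, Oas3 and Oas1a lay together on chromosome 5 between 120730333 and 120907521, and Ifit2, Ifit3 and Ifit1 on chromosome 19 between 34550694 and 34650009. Neighbours could have changes of different size: Rsad2 and Cmpk2, side by side on chromosome 12 between 26442746 and 26479837, had model vs normal changes of 4.50 and 1.29.

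The nanozyme libraries did not stand together. Library sums ran from 443746 to 519772 FPKM. A principal component analysis of all tested genes placed nanozyme replicates 1, 2 and 3 at -14.4, 43.3 and -9.68 on its first axis, with model libraries at 39.5 to 61.2 and normal libraries at -63.5 to -54.8. Replicate 2 thus stood among the model libraries. Each nanozyme result below is therefore given with all 3 nanozyme libraries and without replicate 2, and the fit without it rests on 2 nanozyme mice. Replicate 2 was set apart after its values were seen, because it lay with the model libraries. Leaving it out favours a difference between nanozyme and model lung. Counts and p-values of that fit therefore describe the remaining libraries and are not a test of the nanozyme. As a check of the tissue, the surfactant gene Sftpc was abundant in every library, at 13411 to 25163 FPKM in nanozyme lung, 6177 to 8900 in model lung and 19846 to 25072 in normal lung. The 8 epithelial markers together were lower in model than in normal lung, as given with the other cell markers.

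Model lung had higher levels of nearly the whole antiviral set than normal lung. Of the 46 genes, 43 rose and 0 fell, where 17.4% of all genes tested were called higher and 22.7% lower. Their median change was 2.25, against -0.12 for all tested genes. In whole lung, more cells of a type and more RNA per cell cannot be told apart. Without nanozyme replicate 2, which enters this comparison only through the shared estimate of spread, all 46 rose, against 18.9% of all tested genes called higher and 26.4% lower. The genes that did not pass with all libraries were Usp18, Trim25 and Isg20. At all 46 the 3 model libraries lay above the 3 normal ones, which was so at 23.5% of all tested genes. All 46 genes passed the filter on low values, and Oas3, under 1 FPKM in each normal library, passed it through the other groups. Nanozyme lung lay between: the median change against model lung was -1.30 and against normal lung 0.93, where all tested genes had medians of 0.09 and -0.01. The 3 comparisons share libraries, so their changes are given side by side and not as separate evidence. The summed FPKM of the 46 genes was 1361, 5462 and 1657 in the nanozyme lungs, 4490, 6235 and 6017 in the model lungs, and 1133, 1078 and 1117 in the normal lungs.

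**Figure D1:**
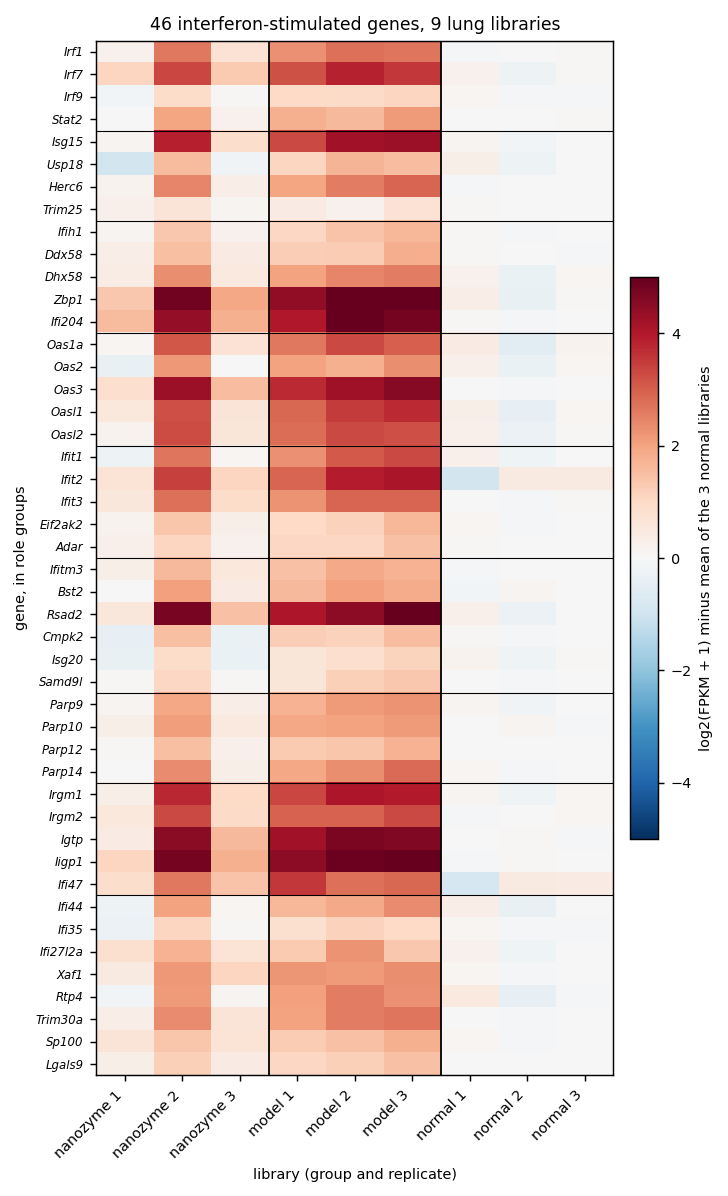
Colour gives log2(FPKM + 1) minus the mean of the 3 normal libraries for 46 interferon-stimulated genes (rows, in role groups parted by lines) in 9 libraries (columns: nanozyme, model, normal, replicates 1 to 3). Nanozyme replicate 2 is coloured like the model libraries, with a median difference of 2.16 against 1.99 to 2.34 in them, whereas nanozyme replicates 1 and 3 have medians of 0.25 and 0.50.

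All 4 transcription factors rose in model lung. Irf7, which amplifies type I interferon production, had 24.5, 120.0 and 29.3 FPKM in nanozyme replicates 1, 2 and 3, 108, 175 and 138 FPKM in the model lungs, and 13.1, 9.0 and 11.5 FPKM in the normal lungs. Its change was 3.52 ± 0.52 in model over normal lung (adjusted p = 0.00195). The 3 groups were ordered model, nanozyme, normal by mean, but nanozyme replicate 2 lay within the model range and replicates 1 and 3 lay nearer to normal lung. Irf1, a factor induced strongly by type II interferon, had 50.2, 275 and 71.5 FPKM in nanozyme lung, 212, 297 and 282 FPKM in model lung, and 41.8, 43.5 and 44.8 FPKM in normal lung (model over normal 2.56 ± 0.53, adjusted p = 0.00663). Irf9 and Stat2, partners in the response element complex, rose less: Irf9 by 1.01 ± 0.25 (adjusted p = 0.0128) and Stat2 by 1.84 ± 0.46 (adjusted p = 0.0140). Irf9 was at 20.5, 44.7 and 23.8 FPKM in nanozyme lung, 46.8, 45.6 and 49.4 FPKM in model lung, and 24.9, 22.0 and 22.1 FPKM in normal lung. It was 1 of only 2 genes, with Ifi47, at which all 3 nanozyme libraries lay below all 3 model libraries.

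In the ISG15 system, 2 of 4 genes rose in model lung. Isg15, a ubiquitin-like protein that is attached to other proteins, had 18.5, 259.9 and 31.9 FPKM in nanozyme lung, 174, 329 and 342 FPKM in model lung, and 18.8, 15.4 and 16.4 FPKM in normal lung. Its change was 3.92 ± 0.82 in model over normal lung (adjusted p = 0.00712), and nanozyme replicate 1 lay within the normal range. Herc6, the main ISG15 ligase in mice, rose by 2.48 ± 0.54 (adjusted p = 0.00863). Usp18, which removes ISG15 and restrains the type I receptor, did not pass (1.43 ± 0.54, adjusted p = 0.0629). It had 11.3, 67.3 and 19.6 FPKM in nanozyme lung, 47.4, 73.6 and 66.7 FPKM in model lung, and 27.3, 18.3 and 21.7 FPKM in normal lung, so nanozyme replicate 1 was lower than every normal library. Trim25, a ubiquitin ligase that aids RIG-I signalling, showed the smallest difference of the set (0.46 ± 0.17, adjusted p = 0.0584). It had 21.6, 28.8 and 20.3 FPKM in nanozyme lung, 24.8, 21.1 and 31.1 FPKM in model lung, and 19.0, 17.7 and 17.8 FPKM in normal lung.

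All 5 nucleic acid sensors rose in model lung. Zbp1, a sensor of left-handed nucleic acids that can trigger necroptosis, had the largest change of the 46 genes (4.94 ± 0.78, adjusted p = 0.00241). Its level was 14.3, 168 and 22.2 FPKM in nanozyme lung, 127, 250.7 and 192 FPKM in model lung, and 6.44, 3.66 and 5.19 FPKM in normal lung. Every nanozyme library lay above the normal range, and replicate 2 within the model range. Ifi204, a DNA sensor of the PYHIN family, had 9.30, 70.2 and 10.6 FPKM in nanozyme lung, 53.3, 106 and 94.3 FPKM in model lung, and 2.57, 2.25 and 2.42 FPKM in normal lung (model over normal 4.59 ± 0.66, adjusted p = 0.00174). The cytosolic RNA helicases rose less, with Ifih1 (encoding MDA5) at 1.38 ± 0.31, Ddx58 (encoding RIG-I) at 1.43 ± 0.30 and their relative Dhx58 at 2.35 ± 0.47, and adjusted p-values from 0.00607 to 0.00932. Their mean levels in model lung were 19.7 ± 4.35, 34.9 ± 8.25 and 21.5 ± 4.31 FPKM (SD, n = 3).

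All 5 genes of the oligoadenylate synthetase family rose. The active synthetases of this family make short oligoadenylates that switch on RNase L. Oas3 had 2.02, 30.9 and 3.84 FPKM in nanozyme lung, 21.4, 30.3 and 38.4 FPKM in model lung, and 0.692, 0.622 and 0.689 FPKM in normal lung (model over normal 4.18 ± 0.74, adjusted p = 0.00371). Oasl2, the most abundant of the family, had 16.1, 143 and 22.2 FPKM in nanozyme lung, 104, 149 and 142 FPKM in model lung, and 17.1, 11.3 and 14.7 FPKM in normal lung (3.11 ± 0.68, adjusted p = 0.00873). At Oasl2 nanozyme replicate 1 lay within the normal range, whereas at Oas3 the nanozyme and normal groups did not overlap. Oasl1, which restrains translation of Irf7, had 2.98, 24.7 and 3.29 FPKM in nanozyme lung, 19.1, 30.2 and 35.0 FPKM in model lung, and 2.34, 1.08 and 1.95 FPKM in normal lung (3.37 ± 0.65, adjusted p = 0.00521). Oas1a and Oas2 rose by 2.97 ± 0.68 and 2.04 ± 0.57, with adjusted p-values of 0.0102 and 0.0225.

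The 5 genes that stop translation or edit RNA all rose. IFIT proteins bind viral RNA or block initiation of translation. Ifit3 had 44.1, 203 and 55.3 FPKM in nanozyme lung, 143, 222 and 222 FPKM in model lung, and 28.9, 28.0 and 30.4 FPKM in normal lung (model over normal 2.68 ± 0.50, adjusted p = 0.00435). Ifit1 had 9.59, 81.2 and 12.4 FPKM in nanozyme lung, 61.6, 107 and 124 FPKM in model lung, and 14.1, 9.999 and 11.4 FPKM in normal lung (2.89 ± 0.69, adjusted p = 0.0116). Nanozyme replicate 1 was below every normal library at Ifit1, and above every normal library at Ifit3. Ifit2 rose by 3.64 ± 0.72, while Eif2ak2, encoding the kinase PKR, rose by 1.27 ± 0.32 and Adar, an RNA-editing enzyme, by 1.18 ± 0.23 (adjusted p = 0.00553, 0.0138 and 0.00553). Adar was at 9.89, 18.1 and 9.61 FPKM in nanozyme lung, 17.4, 17.6 and 24.2 FPKM in model lung, and 8.34, 8.0 and 7.90 FPKM in normal lung. Reads of Ifit1 and Ifit3 can be shared with the near copies Ifit1bl1 and Ifit3b, reads of Oas1a with Oas1g, and reads of Trim30a with Trim30b and Trim30d, so single values of these genes are uncertain.

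Among restriction factors of entry, replication and release, 5 of 6 measured genes rose. Ifitm3, a membrane protein that blocks viral fusion, was the most abundant member, at 365, 924 and 426 FPKM in nanozyme lung, 833, 1104 and 1011 FPKM in model lung, and 290.4, 305 and 303 FPKM in normal lung (model over normal 1.70 ± 0.31, adjusted p = 0.00423). The groups did not overlap between nanozyme and normal lung. Rsad2, encoding viperin, had 2.80, 67.5 and 6.10 FPKM in nanozyme lung, 41.9, 55.8 and 79.9 FPKM in model lung, and 2.08, 1.10 and 1.63 FPKM in normal lung (4.50 ± 0.90, adjusted p = 0.00599). Bst2, which tethers budding virus, rose by 1.85 ± 0.45 (adjusted p = 0.0122). Samd9l, a repressor of translation and growth, had 20.7, 41.3 and 20.5 FPKM in nanozyme lung, 30.8, 45.7 and 51.7 FPKM in model lung, and 20.1, 18.9 and 20.1 FPKM in normal lung (1.05 ± 0.28, adjusted p = 0.0186). Cmpk2, a mitochondrial nucleotide kinase, rose by 1.29 ± 0.44 (adjusted p = 0.0463), and Isg20, an RNA exonuclease, did not pass (0.85 ± 0.32, adjusted p = 0.0651). The calls at Cmpk2 and Samd9l were lost in 6 and 5 of the 9 fits that leave out 1 library. Isg20 was at 27.1, 66.8 and 27.7 FPKM in nanozyme lung, 53.9, 64.8 and 77.4 FPKM in model lung, and 39.7, 30.6 and 36.5 FPKM in normal lung. At Isg20 and Cmpk2, nanozyme replicates 1 and 3 were lower than every normal library.

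All 4 PARP genes rose. These enzymes attach ADP-ribose to proteins, and PARP9 works with the ubiquitin ligase DTX3L. Parp9 had 13.3, 48.7 and 15.7 FPKM in nanozyme lung, 42.9, 56.4 and 61.5 FPKM in model lung, and 13.5, 10.7 and 12.4 FPKM in normal lung (model over normal 2.04 ± 0.41, adjusted p = 0.00633). Parp12 had 19.9, 56.2 and 22.8 FPKM in nanozyme lung, 48.9, 52.1 and 65.9 FPKM in model lung, and 19.2, 19.2 and 18.8 FPKM in normal lung (1.48 ± 0.34, adjusted p = 0.00967). At Parp12 every nanozyme library lay above the normal range, and at Parp9 replicate 1 lay inside it. Parp10 and Parp14 rose by 2.04 ± 0.40 and 2.36 ± 0.55 (adjusted p = 0.00562 and 0.0107). Annotated exons overlap between Parp9 and Dtx3l, Irf7 and Phrf1, and Adar and Chrnb2 on opposite strands, and between Irf9 and Rnf31, Parp10 and Plec, Ifi47 and Olfr56, and Igtp and Irgm2 on the same strand. The strand setting of the authors' counting is not given in the sources used here, so reads of these pairs may be mixed.

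The 5 immunity-related GTPases rose the most as a group, with a median change of 3.78 in model over normal lung. They are interferon-inducible GTPases that, in mice, act on vacuoles of intracellular pathogens. Iigp1 had 25.8, 346 and 42.7 FPKM in nanozyme lung, 282, 376 and 394 FPKM in model lung, and 11.2, 12.3 and 11.4 FPKM in normal lung (4.78 ± 0.79, adjusted p = 0.00290). Igtp, encoding IRGM3, had 15.9, 288 and 37.4 FPKM in nanozyme lung, 233, 329 and 309.5 FPKM in model lung, and 11.6, 12.3 and 10.97 FPKM in normal lung (4.51 ± 0.85, adjusted p = 0.00464). In both genes nanozyme replicate 2 lay within the model range and the other nanozyme libraries above the normal range. Irgm1 and Irgm2, which regulate the other GTPases, rose by 3.78 ± 0.75 and 3.06 ± 0.60 (adjusted p = 0.00581 and 0.00546). Ifi47, also called IRG-47, had 30.5, 105 and 45.9 FPKM in nanozyme lung, 198, 116 and 127 FPKM in model lung, and 8.69, 22.3 and 21.7 FPKM in normal lung (3.06 ± 0.49, adjusted p = 0.00260). It differed from the other GTPases in that replicate 1 was its highest model library.

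The remaining 8 genes all rose in model lung, by 0.98 to 2.42. Ifi27l2a, a mitochondrial protein gene, was the most abundant of them, with 163, 310.1 and 149 FPKM in nanozyme lung, 231, 445 and 233 FPKM in model lung, and 108, 78.6 and 91.9 FPKM in normal lung (1.63 ± 0.34, adjusted p = 0.00669). Sp100, a scaffold of nuclear bodies, had 43.0, 73.5 and 44.3 FPKM in nanozyme lung, 67.4, 76.2 and 94.3 FPKM in model lung, and 28.7, 25.8 and 27.0 FPKM in normal lung (1.50 ± 0.21, adjusted p = 0.00159). Of the 46 genes it had the smallest adjusted p in this comparison, and its nanozyme and normal groups did not overlap. Ifi35 was at 32.2, 84.4 and 41.5 FPKM in nanozyme lung, 69.6, 89.3 and 78.6 FPKM in model lung, and 42.5, 37.9 and 37.8 FPKM in normal lung (0.98 ± 0.30, adjusted p = 0.0314). Rtp4, which restrains flavivirus replication, was at 8.46, 44.9 and 10.5 FPKM in nanozyme lung, 42.5, 61.5 and 49.8 FPKM in model lung, and 13.7, 6.87 and 9.03 FPKM in normal lung (2.30 ± 0.54, adjusted p = 0.0113). Xaf1, a promoter of apoptosis, Trim30a, a ubiquitin ligase that dampens inflammatory signalling, Ifi44 and the lectin gene Lgals9 rose by 2.21 ± 0.36, 2.42 ± 0.47, 1.97 ± 0.53 and 1.23 ± 0.23 (adjusted p = 0.00262, 0.00514, 0.0188 and 0.00448).

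**Figure D2:**
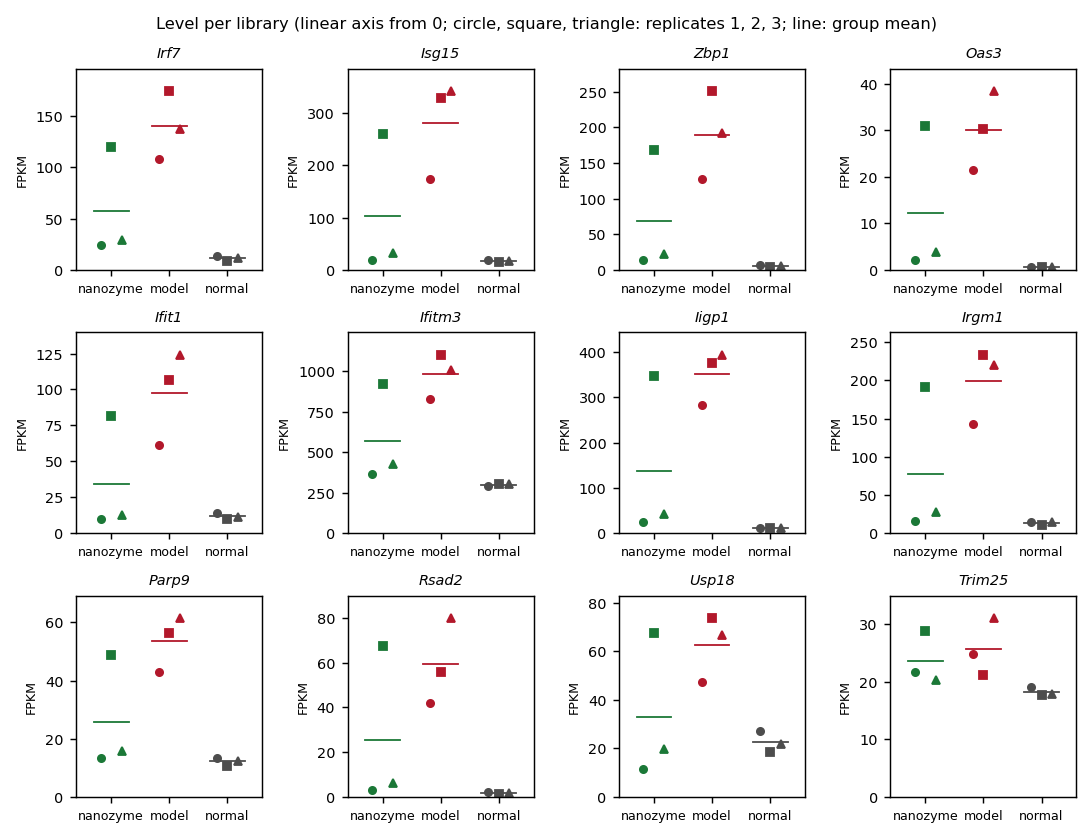
FPKM (linear axes from 0) of 12 of the genes in nanozyme, model and normal lungs, with replicates 1, 2 and 3 as circle, square and triangle and a line at each group mean. The nanozyme square lies near the model points and the nanozyme circle and triangle near the normal points, as at Isg15 (18.5, 259.9 and 31.9 FPKM in nanozyme lung), while the groups lie close together at Trim25.

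Nanozyme lung was compared with model lung. Differences of treatment, of induction and of batch cannot be told apart in this comparison. With all libraries, 0 of 46 genes passed in either direction, and 0.00% of all genes tested were called higher or lower by limma. All 46 estimates were negative, from -2.33 at Igtp to -0.12 at Trim25, with a median of -1.30. At an unadjusted p under 0.05 there were 42 of 46 genes, and 22.1% of all tested genes. The 8 genes with the smallest p were Irf7, Ifi204, Ifit1, Parp9, Irf9, Rtp4, Oasl1 and Ifi47, all with an adjusted p of 0.182. Their changes were -1.61 ± 0.52 at Irf7, -2.01 ± 0.66 at Ifi204, -2.06 ± 0.69 at Ifit1 and -1.24 ± 0.41 at Parp9. Nanozyme and model groups overlapped at 44 of the 46 genes, and only at Irf9 and Ifi47 did every nanozyme library lie lower, which was so at 5.83% of all tested genes.

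That result turned on nanozyme replicate 2. At all 46 genes this library was the highest of the 3 nanozyme libraries, against 33.5% of all tested genes. At 44 of the 46 it lay within the range of the model libraries, against 59.6% of the 3420 tested genes at which the model libraries lay above the normal ones, and at Irf9 and Ifi47 it lay between the model and normal ranges. Without it, 44 of 46 genes were called lower in nanozyme than in model lung and 0 higher, where 9.64% of all tested genes were called lower and 12.5% higher. Because the library was left out for its likeness to model lung, these calls are descriptive only. The largest changes in that fit were -3.50 ± 0.31 at Igtp (adjusted p = 0.000516), -3.48 ± 0.34 at Rsad2 (adjusted p = 0.000653) and -3.42 ± 0.33 at Isg15 (adjusted p = 0.000611). Ifi27l2a (-0.89 ± 0.29, adjusted p = 0.0649) and Trim25 (-0.26 ± 0.15, adjusted p = 0.258) did not pass. The remaining nanozyme libraries lay below all model libraries at 45 genes, all but Trim25, against 18.5% of all tested genes. Without any other library the count of called genes was 0.

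**Figure D3:**
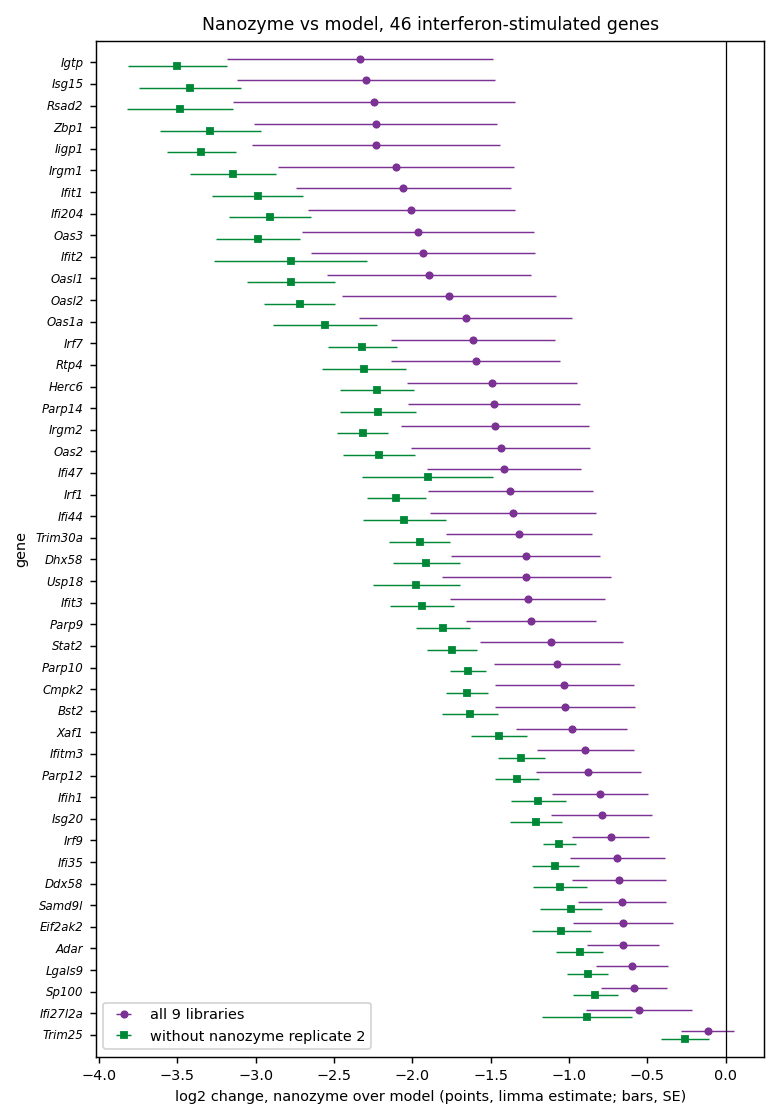
Log2 change of nanozyme over model lung (horizontal axis, points with SE) for 46 genes, with all 9 libraries (circles) and without nanozyme replicate 2 (squares). All circles lie below 0 with wide errors (median SE 0.49), and the squares lie farther left with narrower errors (median SE 0.21), with Igtp at -3.50.

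Nanozyme lung was also compared with normal lung. With all libraries Irf7 (1.91 ± 0.52, adjusted p = 0.0452), Ifi204 (2.58 ± 0.66, adjusted p = 0.0357) and Sp100 (0.91 ± 0.21, adjusted p = 0.0253) were higher and 0 genes lower, where 8.39% of all tested genes were called higher and 5.50% lower. That count fell to 0 without normal replicate 1, 2 or 3 and to 1, Sp100, without model replicate 3, and was 9 without nanozyme replicate 1. Without nanozyme replicate 2 it was 8 and 0, against 9.31% and 4.26% of all tested genes. The 8 were Ifi204 (1.68 ± 0.26, adjusted p = 0.00643), Zbp1 (1.65 ± 0.32, adjusted p = 0.0161), Iigp1 (1.44 ± 0.22, adjusted p = 0.00608), Irf7, Oas3, Irgm2, Xaf1 and Sp100. The median over the 46 genes was then 0.39, against 0.03 for all tested genes. At 30 of 46 genes every nanozyme library lay above every normal one, against 22.1% of all tested genes. Without replicate 2 this was again so at 30 genes, against 32.0%, and the nanozyme libraries lay below every normal one at Cmpk2 and Isg20, 2 of 46 genes against 25.0%.

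Nanozyme replicates 1 and 3 lay between the model and normal ranges at 29 and 37 of the 46 genes and within the normal range at 8 and 7. Among the 3420 genes with model above normal libraries, 47.7% and 53.4% lay between and 14.1% and 12.1% within the normal range. Replicate 1 was lower than every normal library at Irf9, Stat2, Usp18, Oas2, Ifit1, Cmpk2, Isg20 and Ifi35, and replicate 3 at Cmpk2 and Isg20. These were 17.4% and 4.35% of the 46 genes, against 7.89% and 7.16% of the 3420 genes. In the fit without nanozyme replicate 2 the estimate against normal lung was negative at 9 genes, of which Usp18 was the lowest (-0.54 ± 0.28, adjusted p = 0.252), and none of these passed.

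Ligands, receptors, transducers and regulators of the interferon response were followed in a list of 40 genes, of which 31 were tested. The 31 include 8 regulators of the response, so they are not all upstream of the antiviral genes. In model over normal lung 23 of 31 rose and 0 fell with all libraries, where 17.4% of all genes tested were called higher and 22.7% lower. Without nanozyme replicate 2 the counts were 23 and 1 (18.9% and 26.4% of all genes tested), with Pias1, a regulator of the response, lower (-0.36 ± 0.11, adjusted p = 0.0375). Ifng, encoding type II interferon, was the only ligand that passed the filter on low values, with 1.33, 6.18 and 1.43 FPKM in nanozyme lung, 8.67, 14.8 and 11.8 FPKM in model lung, and 0.240, 0.199 and 0.269 FPKM in normal lung. It rose by 3.34 ± 0.40 (adjusted p = 0.000881), though it is under 1 FPKM in each normal library and passed the filter only through the groups in which it is higher. Every nanozyme library lay below every model library and above every normal one. Ifnb1, encoding interferon beta, was at or below 0.115 FPKM in every library, and Ifna1, Ifna2, Ifna4, Ifna5, Ifne, Ifnk and Ifnl2 were listed at 0 in all 9. Such low values in whole lung do not bear on the interferon proteins or on ligands made earlier.

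Of 6 receptor chains 3 rose in model lung. Ifnar2, of the type I receptor, had 36.0, 54.4 and 36.9 FPKM in nanozyme lung, 56.0, 59.9 and 58.7 FPKM in model lung, and 23.8, 24.1 and 22.2 FPKM in normal lung (1.28 ± 0.15, adjusted p = 0.000828). Its partner Ifnar1 did not pass (0.29 ± 0.13, adjusted p = 0.112), with 21.7, 17.5 and 21.0 FPKM in nanozyme lung, 19.6, 17.6 and 23.8 FPKM in model lung, and 15.4, 17.2 and 16.5 FPKM in normal lung. In the type II receptor likewise Ifngr2 rose (1.12 ± 0.17, adjusted p = 0.00212) and Ifngr1 did not pass (-0.04 ± 0.12, adjusted p = 0.816). The receptor-bound kinase genes Jak2, Tyk2 and Jak1 rose by 1.72 ± 0.35, 0.90 ± 0.14 and 0.52 ± 0.11 (adjusted p = 0.00669, 0.00231 and 0.00788).

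Among upstream sensors, adaptors and kinases 9 of 13 rose, including Tlr9, a receptor for DNA (2.11 ± 0.22, adjusted p = 0.000525), and Sting1, the adaptor of the DNA sensor cGAS (1.96 ± 0.20, adjusted p = 0.000413). Tlr9 and Cgas were under 1 FPKM in each normal library and passed the filter on low values only through the other groups. Irf3, Mavs, Ticam1 and Tlr3 were not called. Among regulators of the response 7 of 8 rose, including the phosphatase gene Ptpn6 (2.50 ± 0.21, adjusted p = 0.000242), Socs1, an inhibitor of Janus kinases (3.48 ± 0.69, adjusted p = 0.00573), and Socs3 (3.07 ± 0.48, adjusted p = 0.00245). Socs1 was at 2.65, 29.4 and 3.90 FPKM in nanozyme lung, 23.2, 42.1 and 29.5 FPKM in model lung, and 1.42, 1.98 and 2.21 FPKM in normal lung. In nanozyme against model lung 0 of the 31 passed, and without nanozyme replicate 2 there were 20 lower and 0 higher, against 9.64% and 12.5% of all tested genes. Those lower included Ifng (-2.40 ± 0.20, adjusted p = 0.000394) and Ifnar2 (-0.66 ± 0.09, adjusted p = 0.00222). In nanozyme over normal lung 10 were higher with all libraries, among them Ifng (1.48 ± 0.40, adjusted p = 0.0452) and Ifnar2 (0.81 ± 0.15, adjusted p = 0.0119), and 9 were higher without replicate 2, against 8.39% and 9.31% of all tested genes.

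**Figure D4:**
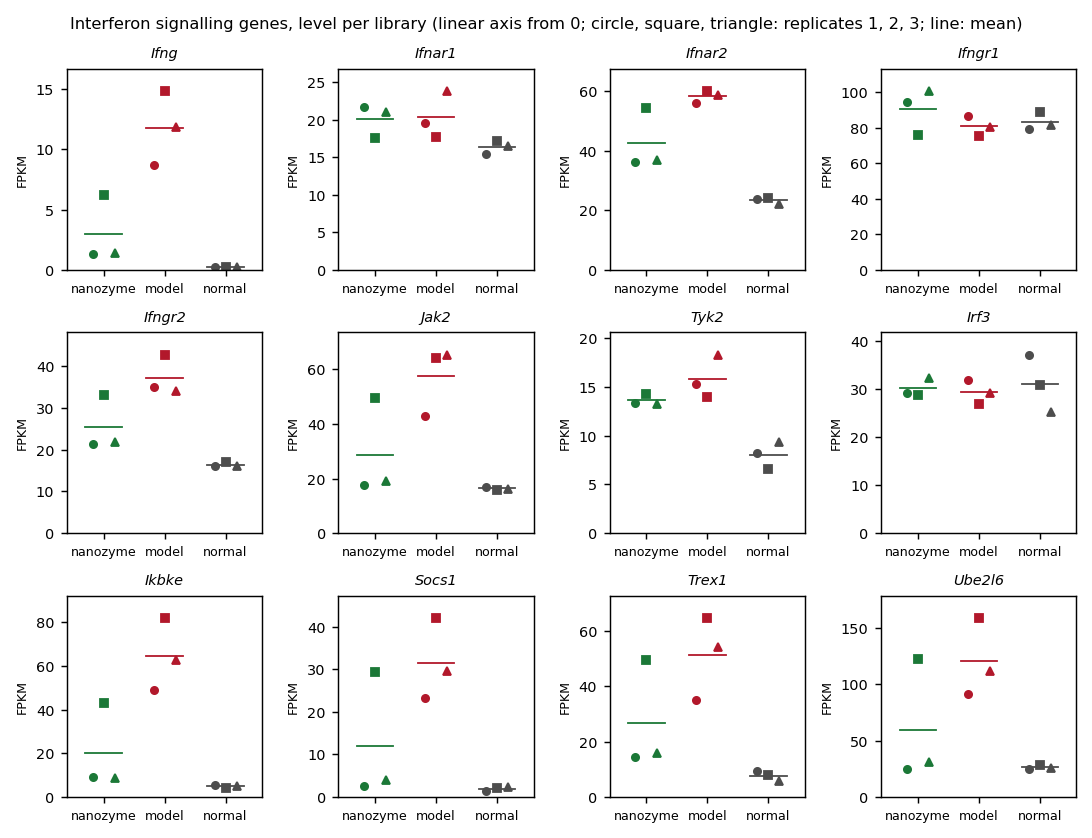
FPKM (linear axes from 0) of 12 interferon signalling genes in nanozyme, model and normal lungs, with replicates 1, 2 and 3 as circle, square and triangle and a line at each group mean. Ifng is at 1.33 to 6.18 FPKM in nanozyme lung, 8.67 to 14.8 in model lung and 0.199 to 0.269 in normal lung, while Ifngr1 and Irf3 overlap between all groups.

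Markers of several cell types moved with the antiviral genes between model and normal lung. All 6 general leucocyte markers were higher in model than in normal lung, with summed levels of 1090.2 to 1682 FPKM and 229.6 to 291 FPKM. All 8 neutrophil markers were higher too (2466 to 3211 FPKM against 37.4 to 46.6 FPKM, with Ly6g at 0 in normal lung), as were 7 of 8 macrophage markers (823 to 1044 FPKM against 122 to 131 FPKM), 7 of 8 monocyte markers (743 to 1115 FPKM against 177 to 208 FPKM) and 5 of 7 markers of NK and T cells, which make type II interferon (61.6 to 81.2 FPKM against 17.6 to 24.3 FPKM). Structural and red cell markers went the other way. Of the epithelial markers 6 of 8 fell in model lung, and 8 of 8 without nanozyme replicate 2 (15891 to 25681 FPKM against 80152 to 101170 FPKM). Lower as well were 3 of 6 fibroblast markers (142 to 551 FPKM against 1502 to 2096 FPKM), 1 of 6 endothelial markers, or 2 without nanozyme replicate 2 (261 to 560.3 FPKM against 622 to 726 FPKM), and all 5 red cell markers (173 to 319 FPKM against 3528 to 4252 FPKM). In this comparison 17.4% of all tested genes were called higher and 22.7% lower with all libraries. The neutrophil markers Cxcr2, Mmp8 and Ly6g, under 1 FPKM in each normal library, passed the filter only through the other groups. The epithelial sum mainly follows Scgb1a1 and Sftpc, with means of 63870 and 22510 FPKM in normal and 10242 and 7851 FPKM in model lung. The fibroblast sum mainly follows Inmt, with means of 1597 and 252 FPKM. Other epithelial markers could fall less, such as Cdh1, with means of 125 and 83.2 FPKM. The part of cell composition in the changes of the antiviral genes was not tested.

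Markers of plasmacytoid dendritic cells, a main source of type I interferon, were mixed. Of 5 tested, 0 passed as higher in model over normal lung, while Cox6a2 (-1.58 ± 0.43, adjusted p = 0.0205) and Smim5 (-1.57 ± 0.34, adjusted p = 0.00847) fell. The sum of all 8 listed was 37.4 to 41.9 FPKM in model lung and 60.9 to 96.3 FPKM in normal lung. Its largest terms were Cox6a2, Smim5 and Tcf4, with means of 33.7, 23.1 and 16.7 FPKM in normal lung. Their means in model lung were 10.7, 7.79 and 12.2 FPKM, so the sum mainly follows these genes. Siglech had a mean of only 1.11 FPKM in normal lung. Whether Cox6a2, Smim5 and Tcf4 mark only plasmacytoid dendritic cells in whole lung was not tested, so the sum does not give the number of these cells. Siglech (0.09 ± 0.18, adjusted p = 0.716) and Spib (0.43 ± 0.31, adjusted p = 0.292) did not pass. Ccr9 and Pacsin1, too low to be tested, were at 0.874 to 1.13 and 0.549 to 0.642 FPKM in model lung, against 0.231 to 0.294 and 0.130 to 0.202 FPKM in normal lung. None of the 8 was at 0 in all libraries of a group.

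In nanozyme lung the summed levels were 784.5 to 1270.1 FPKM for the general leucocyte markers, 1118 to 3306 FPKM for neutrophil, 524 to 811 FPKM for macrophage and 354 to 816 FPKM for monocyte markers, with the highest sum in replicate 2 each time. Against model lung 0 markers of these lists passed with all libraries. Without nanozyme replicate 2, 3 of 6 general leucocyte, 8 of 8 neutrophil, 5 of 8 macrophage and 4 of 8 monocyte markers were lower in nanozyme than in model lung, beside the 44 of 46 antiviral genes, and 1 macrophage marker was higher. Of the NK and T cell markers 0 of 7 were lower and 1 was higher in that fit. Higher too were 3 of 8 epithelial, 3 of 6 fibroblast and 2 of 6 endothelial markers. With all libraries 0 markers of these 4 lists passed against model lung. Of all tested genes 9.64% were called lower and 12.5% higher without nanozyme replicate 2.

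The distance from normal lung is given for each nanozyme library, for the antiviral genes and for the leucocyte lists. The median log2 difference from normal lung over the 46 antiviral genes was 0.25, 2.16 and 0.50 in nanozyme replicates 1, 2 and 3, and 1.99, 2.30 and 2.34 in the model libraries. Over the 6 general leucocyte markers it was 1.62, 2.17 and 1.62 in the nanozyme libraries and 2.04, 2.44 and 2.17 in the model libraries. Over 8 macrophage markers it was 1.93, 2.71 and 1.94 in the nanozyme libraries and 2.79, 3.10 and 2.78 in the model libraries. For 8 neutrophil markers it was 3.17, 4.79 and 3.28 in the nanozyme libraries and 4.98, 5.0 and 5.17 in the model libraries. For 8 monocyte markers it was 1.22, 1.24 and 0.66 in the nanozyme libraries and 1.74, 1.37 and 2.02 in the model libraries, so the monocyte median of replicate 3 lay close to its antiviral median. The leucocyte gene Ptprc, encoding CD45, had 63.5, 86.8 and 67.6 FPKM in nanozyme lung, 80.3, 94.0 and 106 FPKM in model lung, and 18.1, 22.7 and 22.0 FPKM in normal lung. With all libraries, 6 of 6 leucocyte, 8 of 8 neutrophil, 6 of 8 macrophage, 5 of 7 NK and T cell and 5 of 8 monocyte markers were called higher in nanozyme than in normal lung. Of the antiviral genes 3 of 46 were, against 8.39% of all tested genes. Without nanozyme replicate 2, the counts were 6 of 6 leucocyte, 8 of 8 neutrophil, 7 of 8 macrophage, 5 of 7 NK and T cell and 3 of 8 monocyte markers. Of the antiviral genes 8 of 46 were then called higher, against 9.31% of all tested genes. The difference between these lists was not tested.

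B cell markers followed another order. Their summed level was 219.7, 61.6 and 181 FPKM in nanozyme replicates 1, 2 and 3, against 45.3 to 60.3 FPKM in model lung and 47.1 to 65.0 FPKM in normal lung. Thus the 2 nanozyme lungs with low antiviral genes had the highest B cell markers. With all libraries 0 of these 5 markers passed in nanozyme against model lung. Without replicate 2 all 5 were called higher in nanozyme than in model lung, against 12.5% of all tested genes. They included Cd79a of the B cell receptor (1.78 ± 0.18, adjusted p = 0.000742). The part of the cell mixture, of a difference in exposure or of the library itself in the level of nanozyme replicate 2 was not tested.

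**Figure D5:**
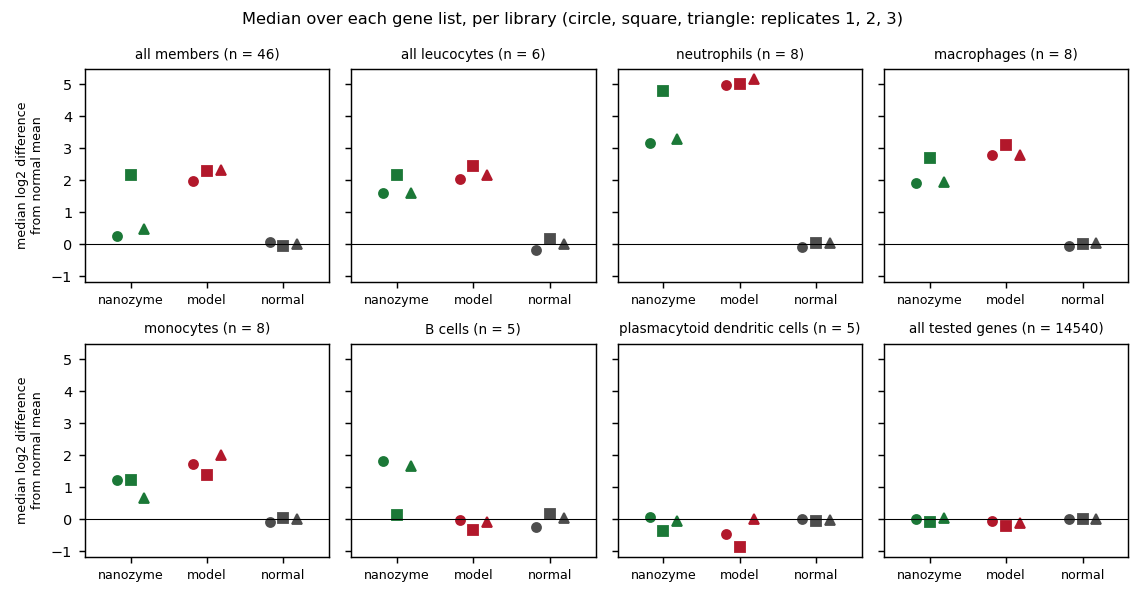
Median log2 difference from the normal mean (vertical axis) over the antiviral genes, 6 lists of cell markers and all tested genes, per library (circle, square, triangle for replicates 1, 2, 3) in nanozyme, model and normal lungs. Nanozyme replicates 1 and 3 lie at 0.25 and 0.50 for the antiviral genes and at 1.62 and 1.62 for the general leucocyte markers.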

How the data were processed

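The labels give 3 mice per group and 1 library per mouse. Libraries were made from TRIzol-extracted lung RNA after oligo(dT) selection, with a buffer for marking the second strand, per the labels' protocols. Alignment used HISAT2 and GRCm38, per the submitters' processing notes. The counting tool, its strand setting, the annotation and any filter are not given in the sources used here. The authors deposited FPKM values, 1 column per library. Read depth is unknown, since ratios of low values did not step by whole reads (2.38% of them lay in the fullest bin), so no counting error can be given.

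Genes with FPKM of at least 1 in at least 3 of 9 libraries were tested (14540). Tests used log2(FPKM + 1), which understates changes of low genes, and were two-sided. A single limma 3.58.1 model (R 4.3.3) held the 9 libraries, with group means and an intensity trend. Adjustment followed Benjamini and Hochberg over all genes tested, with calls at 0.05. The fit was tested on simulated data with known changes. With 3 mice against 3, an exact permutation test of 1 gene cannot go below 0.10, so none was run. The labels give no date or batch, so a batch of the nanozyme libraries, which are numbered apart, cannot be told apart from treatment.

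The members, role lists, pathway list and marker lists were chosen with earlier results of these data known. All members are accounted for. Values per library are given for those with the largest and smallest called changes or the smallest p in nanozyme against model lung, those not called in model against normal lung, the most abundant of each role list, and a few more. Oas3, Isg15 and Rsad2 are shown because their promoters are printed. A gene left out of the pathway list is not reported here, and listed pathway genes that are not named enter the counts alone. Mb21d1 and Tmem173 were matched as Cgas and Sting1. Alternatives were another pseudocount, other filters and scalings, fits of the groups compared, no trend, sample weights, a replicate block, and leaving out each library. Figures used matplotlib 3.10.9 in Python 3.11.15.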

Additional observations from a re-analysis of the deposited data

How the results depend on the processing

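In model against normal lung the number of the 46 genes called higher was 43, between 38 and 46 in the fits that leave out 1 library each and between 42 and 46 in the other alternatives, and 0 were lower in any of them. Usp18, Trim25 and Isg20 passed when only the compared groups were fitted and with sample weights. Over the 9 fits that leave out 1 library, the call was lost at Cmpk2 in 6 (adjusted p up to 0.119). It was lost at Samd9l and Ifi35 in 5 each, and at Oas2 and Ifi44 in 3 each. Cmpk2 was also not called with no filter or with a replicate block. In nanozyme against model lung 0 were higher in any fit, and the number lower was 0 except without nanozyme replicate 2 and with sample weights, each 44, so the range over left-out libraries was 0 to 44. The estimate of sample weights stopped before its convergence tolerance was reached. In nanozyme against normal lung the number higher was 3, and 5 with a pseudocount of 0.1, 1 with no filter, 6 with equal column sums, 2 with median-of-ratios scaling, 6 with quantile normalization, 1 with only the groups compared and 19 with sample weights, and 0 to 9 over left-out libraries. None were lower.

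Signs changed at genes that passed in neither fit. With sample weights the nanozyme vs normal change became -0.24 at Usp18, -0.022 at Oas2, -0.25 at Cmpk2 and -0.31 at Isg20, and with quantile normalization it was -0.037 at Isg20. Over left-out libraries it ranged from -0.052 to 0.49 at Irf9, -0.54 to 0.70 at Usp18, -0.18 to 1.08 at Oas2, -0.092 to 1.39 at Ifit1, -0.36 to 0.59 at Cmpk2, -0.36 to 0.28 at Isg20, -0.080 to 1.05 at Ifi44, -0.10 to 0.58 at Ifi35 and -0.012 to 1.13 at Rtp4, and the nanozyme vs model change of Trim25 ranged from -0.26 to 0.026. At each of the genes listed from Irf9 to Rtp4 the sign changed without nanozyme replicate 2, and at Isg20 also without normal replicate 2. At Trim25 it changed without model replicate 3. Why these libraries differ was not tested. Median-of-ratios scaling moved the median model vs normal change of all tested genes by 0.11, and the higher share of calls was 53.6% with it and 54.2% with equal column sums, against 43.4%. Equal column sums also moved that share in nanozyme against normal lung to 70.4%, against 60.4%, and quantile normalization to 46.8%.

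Replicate numbers are shared between groups, but nothing in the labels pairs the mice, and same-numbered libraries did not deviate together (correlations across genes from -0.33 to 0.23). With a replicate block 42 genes were higher in model than in normal lung, 0 passed in nanozyme against model lung and 2 were higher in nanozyme than in normal lung. The depth of each library is unknown and 3 mice a group limit what the fits can show, and changes of low genes such as Oas3 in normal lung depend on the pseudocount.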
